A study of Mus musculus with 94 samples.

Results

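Single basophils from the CD34-positive gate were compared with those CD34-negative basophils that still carried mRNA of Ctsg, which encodes cathepsin G. Bone marrow cells of 3 female C57BL/6 mice had been index-sorted as Live Lin- Sca1- FcεRI+, with either CD34+ or CD34- as the last criterion, and the labels name no treatment, genetic change or age. The comparison used all 46 CD34-positive cells with at least 50000 gene reads, and the 19 CD34-negative cells that passed the same minimum and had Ctsg at 100 CPM or more (counts per 1000000 gene reads), here called Ctsg-high cells. These are 65 of the 92 cells kept out of 94. The other 27 kept CD34-negative cells, called Ctsg-low, are given beside them. The labels do not tie a cell to a mouse, so a gate stands as a single sample, nothing was tested, and every difference describes these cells.

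Basophils are granulocytes that carry the high-affinity IgE receptor on their surface, and they release histamine, proteases and cytokines when that receptor is cross-linked. Those of the bone marrow include dividing precursors and cells close to release into the blood. Cathepsin G belongs, with myeloperoxidase, neutrophil elastase and proteinase 3, to the primary (azurophil) granule proteins that myeloid precursors make early and stop making as they mature. CD34 is a surface sialomucin of stem and progenitor cells, and Kit is the receptor of stem cell factor.

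The Ctsg-high cells were chosen by their Ctsg level, so the levels of Ctsg are a description. Over the summed reads it stood at 3859 CPM in the CD34-positive cells, 824 CPM in the Ctsg-high cells and 5.27 CPM in the Ctsg-low cells. Single CD34-positive cells ran from 137 CPM (cell 37) through a median of 3514 to 14272 CPM (ranges over cells are given in this order throughout), and Ctsg-high cells from 100.5 through 602 to 2672 CPM (cell 25). The groups overlap, since 17 of the 19 Ctsg-high cells were at or above the lowest CD34-positive cell and 18 of the 46 CD34-positive cells lay within the range of the Ctsg-high cells. All 46 CD34-positive cells were above 100 CPM without having been selected for it. Just inside the threshold were CD34-negative cells 38, 2 and 22, at 100.5, 122 and 162 CPM, and just outside it cells 37, 11 and 41, at 70.2, 31.3 and 10.2 CPM. Only 6 of the CD34-negative cells lay between 50 and 200 CPM, and 24 of the 27 Ctsg-low cells were under 10 CPM. The Ctsg-high cells are thus not matched to the CD34-positive cells in Ctsg, and 8 of the 19 lay between 100 and 500 CPM.

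**Figure D1:**
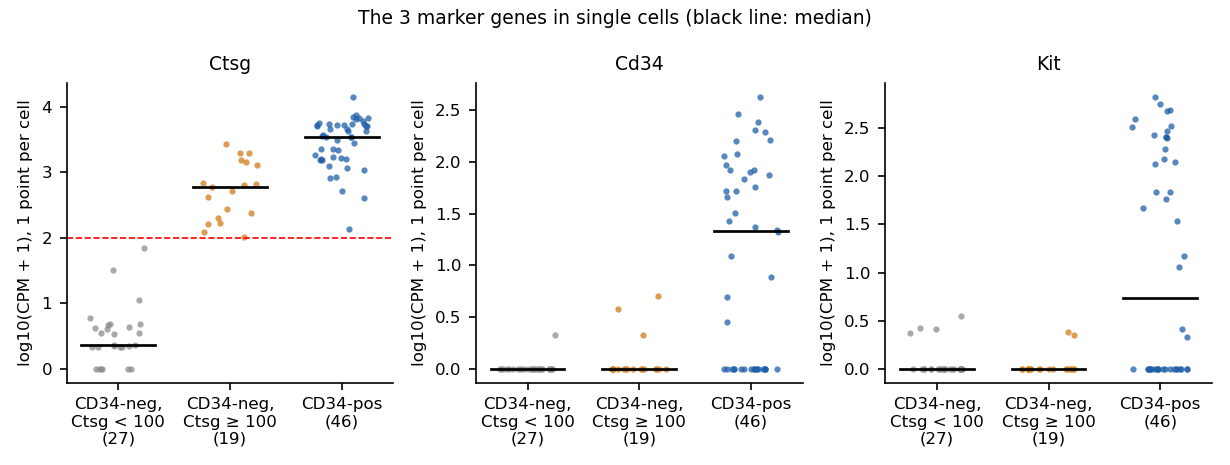
Each point is 1 cell, drawn at log10 of CPM plus 1 for Ctsg, Cd34 and Kit in the CD34-positive, Ctsg-high and Ctsg-low cells, with the dashed line at the 100 CPM of Ctsg that divides the CD34-negative cells. Ctsg overlaps between the first pair of groups, while Kit reaches 668 CPM in the CD34-positive cells and 1.43 CPM in the Ctsg-high cells.

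The mRNA of the sort marker followed the gate labels. Cd34 summed to 59.9 CPM (1799 reads) in the CD34-positive cells and 0.425 CPM (6 reads) in the Ctsg-high cells. Per cell it ran from 0 through 20.3 to 424 CPM in the former, with a read in 28 of 46 cells, and reached 4.08 CPM in the latter, with a read in 3 of 19. Cd34 lies at chr1:194938819-194961279 (plus strand; positions here are 1-based on GRCm38, the mm10 assembly). Both groups carried mRNA of the IgE receptor. The IgE receptor chains Fcer1a and Ms4a2 stood at 3185 and 3026 CPM in the CD34-positive cells against 3777 and 2687 CPM in the Ctsg-high cells, and none of the 14 genes of the IgE receptor and its proximal kinases and adaptors was past 2-fold, beside 21.5% of all genes. Of the 14, 10 had a log2 fold below 0, with a list median of -0.51 against 0.21 for all genes (0.13 against 0.87 with ERCC spike-in RNA as the scale) and the kinase Btk lowest at -1.11. With TMM or scran factors as the scale 3 of the 14 were past 2-fold lower. FcεRI on the surface was a criterion of both gates.

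A gene entered a comparison with reads in at least 10 of its cells and at least 10 CPM in a group. It counted as past 2-fold when the log2 ratio of CPM plus 1 was at least 1 in size with one sign for summed reads, for the mean of single-cell CPM, and for summed reads after leaving out the cell richest in that gene. Against the Ctsg-high cells 9435 genes entered and 2031 were past 2-fold, 21.5% of them, with 1669 (17.7%) higher and 362 (3.84%) lower in the CD34-positive cells. Against the whole CD34-negative gate 2426 of 9621 were past 2-fold (25.2%), with 1785 (18.6%) higher and 641 (6.66%) lower. The 2 comparisons share the CD34-positive cells, and the Ctsg-high cells are part of the gate. The median log2 fold over all genes was 0.21 and 0.18, respectively. Log2 folds that follow are CD34-positive over Ctsg-high cells unless the whole gate is named, and differences are given as they stand, not relative to that median. Other scalings moved the higher share of the genes past 2-fold, which was 82.2%, to 72.6% with TMM factors, 70.2% with scran factors and 96.8% with ERCC spike-in RNA as the scale.

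Of the 1785 genes higher in the CD34-positive gate, 1092 (61.2%) remained past 2-fold against the Ctsg-high cells. Another 161 (9.02%) vanished, that is, were under 1.5-fold, 532 (29.8%) lay between or missed 1 of the 3 versions, and 0 were 1.5-fold the other way. Of the 641 lower genes, 257 (40.1%) remained, 72 (11.2%) vanished, 297 (46.3%) lay between and 15 (2.34%) were at least 1.5-fold higher instead. Of the 72 and 15, 21 and 9 did not reach the minimum for entering against the Ctsg-high cells. A further 577 higher and 105 lower genes were past 2-fold against the Ctsg-high cells without being so against the whole gate. These counts depend on the Ctsg level asked of the reference cells. With only the 11 Ctsg-high cells at 500 CPM or more as the reference, 742 of the 1092 remaining higher genes (67.9%) and 130 of the 257 remaining lower genes (50.6%) were still past 2-fold, and 10 of those lower genes had the opposite sign.

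**Figure D2:**
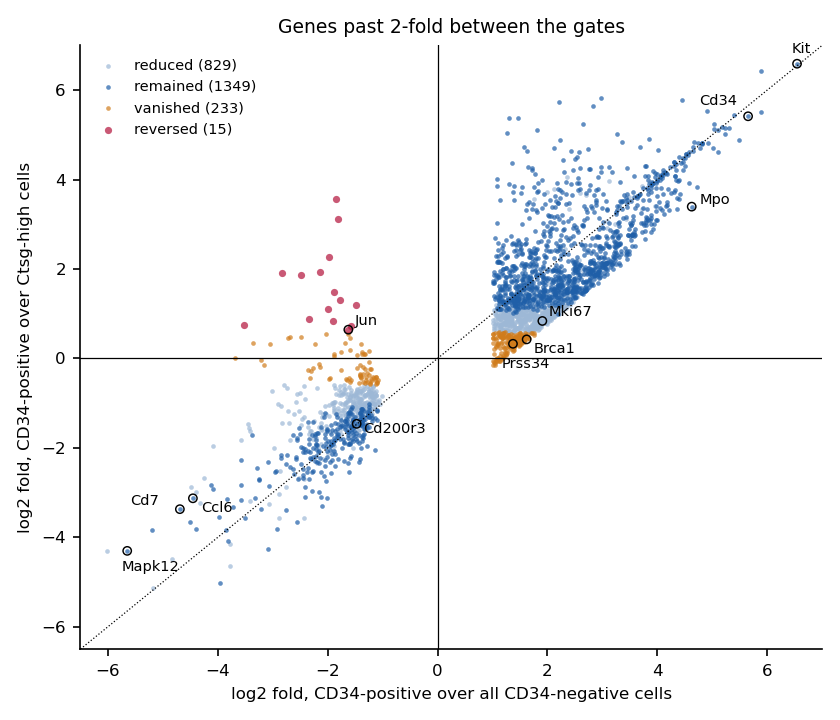
Each point is a gene, with the log2 fold of the CD34-positive cells over the whole CD34-negative gate on the x axis and over the Ctsg-high cells on the y axis, coloured by whether the gate difference remained, shrank, vanished or turned. Points on the diagonal kept their size, as Kit does near the top right, while Prss34 lies near 0 on the y axis. Both axes share the CD34-positive cells and are not independent.

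The next genes were named for the size of their excess in the CD34-positive cells, so their low levels in the Ctsg-high cells follow in part from the choice. Kit (plus strand, chr5:75574916-75656722) had 3279 reads in the CD34-positive cells, 109 CPM, against 2 reads in the Ctsg-high cells, a 770.0-fold excess (counting interval 206 to 6579.6). Per cell Kit ran from 0 through 6.02 to 668 CPM (cell 41), with a read in 25 of 46 CD34-positive cells. Kit was read in 2 of 19 Ctsg-high cells, none above 1.43 CPM, and in 4 of 27 Ctsg-low cells. At an equal 200000 reads per cell, 50.0% of CD34-positive cells (exact binomial interval 34.9% to 65.1%) and 0 of 19 Ctsg-high cells (up to 17.6%) had a Kit read. Counting intervals of ratios set opposite bounds of the exact 95% Poisson intervals of both groups against each other, and the reads carry no molecular identifiers. These intervals cover counting error only. The binomial intervals count cells of a single sample as if independent, so neither kind covers the spread between mice. For Cd34 the ratio was 141 (61.7 to 402).

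Genes of quite different jobs were among those named for their excess. Dhdds (minus strand, chr4:133969028-134000918), a subunit of the enzyme that makes the lipid carrier of N-glycans, ran from 0 through 49.4 to 865 CPM in the CD34-positive cells, with a read in 38 of 46. In the Ctsg-high cells it was read in 4 of 19 and reached 12.1 CPM, a log2 fold of 5.52 (counting interval 5.05 to 5.95). Among the 46, 34 cells lay above every Ctsg-high cell for Dhdds. Cdc25a (plus strand, chr9:109875579-109893895), the phosphatase that activates cyclin-dependent kinases at the start of S phase, ran from 0 through 10.6 to 771 CPM, against 4 reads in 2 Ctsg-high cells and a ratio of 245 (91.5 to 937). Cdc25a had a read in 30 of 46 cells. Lrmp, a protein of the endoplasmic reticulum membrane of lymphoid cells, had 2757 reads against 1, Coq2, which makes the ring precursor of ubiquinone, 1693 against 1, and Slc7a1, the cationic amino acid importer, 1456 against 1. With 1 read in the reference the ratios have wide counting intervals, 224 to 53089 for Lrmp, 136 to 32939 for Coq2 and 117 to 28433 for Slc7a1.

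Tmem176b and Rabepk had 0 reads in the Ctsg-high cells, so their ratio is a bound against 3 reads over that group. Tmem176b, a membrane protein, was at 48.9 CPM in the CD34-positive cells and at least 230.0-fold higher, from reads in 13 of 46 cells. Rabepk, which binds the trafficking GTPase RAB9, was at 40.7 CPM and at least 191-fold higher, from reads in 22 of 46 cells. In the Ctsg-low cells Rabepk, Coq2 and Tmem176b stood at 24.5, 19.7 and 10.3 CPM by summed reads. By these sums they were low in the Ctsg-high cells but not in the whole CD34-negative gate. A sum can rest on few cells, since Coq2 was at 211 CPM in Ctsg-low cell 1 and at 0 in cells 3 and 4. Tmem176b, Lrmp and Cd34 each share exon bases with a gene on the other strand (Tmem176a, Casc1 and Gm16897 in turn), and the strand setting of the counting is not given in the sources used here, so reads of such partners cannot be told apart.

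Against the 11 cells at 500 CPM of Ctsg or more, Kit kept a log2 fold of 6.62, Cd34 5.48 and Dhdds 5.08. With only the 18 CD34-positive cells whose Ctsg lay within the range of the Ctsg-high cells, a choice made after seeing the data, the values were 6.11 for Kit, 5.80 for Cd34 and 5.43 for Dhdds. Those 18 cells had a median of 1537 CPM of Ctsg against 602 CPM in the Ctsg-high cells, so the groups were closer in Ctsg but not matched. In that comparison of 8104 genes 10.8% were past 2-fold higher and 4.15% lower, and against the 11 cells 17.1% and 3.77% of 9398 genes. Kit was read in 7 of the 18, too few for it to enter that comparison. Leaving out Ctsg-high cell 32 moved Dhdds from 5.52 to 6.14.

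All 5 primary granule genes remained higher in the CD34-positive cells, beside 17.7% of all genes, with a median log2 fold of 3.09 against 4.0 for the whole gate. For Ctsg itself this restates the choice of cells. Mpo, myeloperoxidase (chr11:87793581-87804413, plus strand), summed to 3119 CPM in the CD34-positive, 295 in the Ctsg-high and 0.982 in the Ctsg-low cells. Single CD34-positive cells ran from 0 through 2494 to 9869 CPM and Ctsg-high cells from 0 through 2.66 to 2114 CPM (cell 36). Most Ctsg-high cells thus had little Mpo beside their Ctsg, and the group's Mpo came from the upper end of its Ctsg range, with 506 CPM at 500 CPM of Ctsg or more and 1.53 CPM below it. The log2 fold was 3.40, and 1.77 with only the 18 CD34-positive cells whose Ctsg lay in the Ctsg-high range, where 1 of the 3 primary granule genes that entered was past 2-fold, beside 10.8% of all genes. Without Ctsg-high cell 36 the Mpo fold was 4.17.

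Ms4a3, a membrane protein of granulocyte precursors, followed at 786, 244 and 0.672 CPM, with medians over cells of 669.8 and 132 CPM in the first pair. Elane, neutrophil elastase, and Prtn3, proteinase 3, were read in 15 and 17 of 46 CD34-positive cells, in 2 and 1 of 19 Ctsg-high cells and in none of the 27 Ctsg-low cells. Their summed levels were 44.6 against 3.83 CPM and 43.7 against 4.25 CPM, the Prtn3 reads of the Ctsg-high cells all lying in cell 29. Without that cell the Prtn3 fold was 5.48 in place of 3.09, and without cell 36 that of Elane was 4.32 in place of 3.24. Prtn3 and Mpo share exon bases with Plppr3 and Gm11505 on the other strand.

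Of the stem and progenitor list, Myb and Sox4 were graded in the same order, though the list as a whole was not, with summed levels of 1966, 1807 and 2818 CPM in the CD34-positive, Ctsg-high and Ctsg-low cells. Myb, the progenitor transcription factor, stood at 253, 58 and 34.3 CPM in the CD34-positive, Ctsg-high and Ctsg-low cells, and its medians over cells were 224 and 42.6 CPM in the first pair. Its log2 fold was 2.11, and 1.5 against the cells at 500 CPM of Ctsg or more. Sox4, a transcription factor of progenitors, was read in 22 of 46, 2 of 19 and 0 of 27 cells, with 77.9 CPM against 6.74 CPM in the first pair. Myb and Sox4 each share exon bases with an unnamed gene on the other strand. Of the 13 stem and progenitor genes that entered, 5 were past 2-fold higher (Kit, Cd34, Sox4, Myb and Erg) and 0 lower, beside 17.7% and 3.84% of all genes, and the list's median was 0.53 against 0.21 for all genes. With TMM or scran factors, or a Ctsg threshold of 50 CPM, 4 were higher and 1 lower. Against the 11 cells at 500 CPM or more, 6 of 12 were higher and 1 lower, beside 17.1% and 3.77% of all genes. With the 18 CD34-positive cells in the Ctsg-high range 2 of 10 were higher (Cd34 and Myb) and 0 lower, beside 10.8% and 4.15%. Without cell 31 the Sox4 fold was 5.07 in place of 3.35. Meis1 and Adgrg1, genes of stem cells, had log2 folds of 0.53 and 0.76 and did not pass, and Meis1 was at 1.21 without cell 15.

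Prss34 and Mcpt8, proteases of basophil granules, were among the genes whose gate difference vanished. Prss34 (plus strand, chr17:25298394-25300165), the most abundant named protein-coding gene of both groups, had a gate log2 fold of 1.37 and one of 0.33 against the Ctsg-high cells. Single CD34-positive cells ran from 50.1 through 59397 to 118824 CPM, Ctsg-high cells from 132 through 54469 to 92634 CPM, and Ctsg-low cells from 17.5 through 2479.8 to 27395 CPM. All 3 groups overlap, and the median of the Ctsg-low cells lies far below the other medians. Mcpt8 (minus strand, chr14:56082166-56085273), the basophil protease whose gene lies beside Ctsg on chromosome 14, did the same, with 1.40 for the gate and 0.33 against the Ctsg-high cells. Its medians over cells were 18795, 18895 and 536 CPM in the 3 groups. At 500 CPM of Ctsg or more the remaining folds were -0.19 for Prss34 and -0.15 for Mcpt8. With ERCC spike-in RNA as the scale Prss34 was at 0.98 against the Ctsg-high cells, past 1.5-fold, beside a median of 0.87 for all genes.

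Within the 19 Ctsg-high cells the summed Prss34 level was 19808 CPM below 500 CPM of Ctsg and 71329 CPM from there on. Across these 19 cells, which share 1 plate and the scaling of each cell to CPM, the Spearman correlation with Ctsg was 0.83 for Prss34 and 0.69 for Mcpt8, and the Pearson correlation of Prss34 was 0.59, or 0.49 without the 2 cells farthest from the median. In the 46 CD34-positive cells the Spearman values were 0.39 and 0.56. Across the 19 it was 0.11 for the number of gene reads, 0.76 for gene reads per ERCC read, 0.65 for the genes read at equal depth and 0.80 for the G2 and mitosis genes read at equal depth, and their part in the Prss34 values was not tested.

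Cpa3, the granule carboxypeptidase, had a gate log2 fold of 1.33 and kept 0.80, at 4871 against 2789.9 CPM, and Srgn, the proteoglycan core on which granule contents are packed, kept 0.90. With only the 18 CD34-positive cells in the Ctsg-high range these folds were 0.15 for Cpa3 and 0.54 for Srgn. Hdc, which makes histamine, was lower in the CD34-positive cells both ways, with -1.12 for the gate and -0.82 against the Ctsg-high cells, where it stood at 624 against 1101 CPM. Of the 7 genes of the list, 4 were past 2-fold higher and 1 lower against the whole gate, and 0 of the 7 were past 2-fold either way against the Ctsg-high cells, below the background of 21.5%. With ERCC spike-in RNA as the scale 2 of the 7 were past 2-fold higher against the Ctsg-high cells and 0 lower.

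Chemokine and cytokine genes were lower in the CD34-positive cells, and they differed in where in the Ctsg range of the CD34-negative cells they were read. Of the 8 chemokine and cytokine genes that entered, 5 were past 2-fold lower, beside 3.84% of all genes, and the median log2 fold was -1.65 against -2.51 for the gate. With ERCC spike-in RNA as the scale 3 were past 2-fold lower, with a median of -1.02. Against the 11 cells at 500 CPM of Ctsg or more, 1 gene was past 2-fold lower (Ccl3) and 1 higher (Osm, oncostatin M, at 1.43 against -1.36 with all 19), and the median was -0.56. With the 18 CD34-positive cells in the Ctsg-high range 1 of 8 was past 2-fold lower (Ccl6), beside 4.15% of all genes, with a median of -1.17.

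Ccl6 (minus strand, chr11:83587882-83593087), a chemokine gene of myeloid cells, shows this most. It summed to 192 CPM in the CD34-positive, 1684 in the Ctsg-high and 6075 in the Ctsg-low cells, a log2 fold of -3.13 against the Ctsg-high cells. Single cells ran from 0 through 4.79 to 4080.0 CPM (cell 23, which held 47.2% of the group's reads) in the CD34-positive gate and from 0 through 73.3 to 9288 CPM (cell 45) among the Ctsg-high cells. The Ctsg-high reads lay in the lower part of the Ctsg range, with 3790.2 CPM in the 8 cells below 500 CPM of Ctsg and 174 CPM in the 11 cells from there on. Against those 11 cells the Ccl6 fold was 0.14, but single cells decide its sign. In a step added after seeing the data it was -0.75 without CD34-positive cell 23, and 1.54 without Ctsg-high cell 28, which held 65.8% of the Ccl6 reads of the 11. Ccl9, its neighbour on chromosome 11 (chr11:83572919-83578636), went from -2.42 to -0.92, with 5367 CPM below and 998 CPM above that level of Ctsg.

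Cd7, an immunoglobulin-family surface protein best known on T and NK cells, changed sign with the Ctsg level asked of the reference cells. It stood at 14, 154 and 554 CPM in the 3 groups, a log2 fold of -3.37, but at 366 CPM in the 8 and 1.34 CPM in the 11 cells, and the fold was 0.42 against the Ctsg-high cells at 200 CPM or more and 2.68 against those at 500 CPM or more. Without Ctsg-high cell 42 the fold against all others was -2.43. With the 18 CD34-positive cells in the Ctsg-high range it was -2.03 and still past 2-fold lower. Most Cd7 reads of the CD34-positive gate came from cell 37 at 389 CPM and cell 23 at 195 CPM. CD34-positive cell 37, the one with least Ctsg, also had 905 CPM of Ccl6, 4664 CPM of Ccl9 and 809 CPM of Ccr2, with 0 reads of Mpo, Kit, Cd34 and Dhdds. Cell 23 had 513 CPM of Ctsg, 4080.0 CPM of Ccl6 and 162 CPM of Cd34. The interleukin-7 receptor Il7r, the chemokine receptor Cxcr2 and the chemokine Ccl4 likewise lost their call against the 11 cells, with -2.58, -2.01 and -1.72 before and -0.82, -0.92 and -0.87 after.

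Ccl3 was read along the whole Ctsg range of the CD34-negative cells. Ccl3 (minus strand, chr11:83647844-83649355), a chemokine made by activated myeloid cells, ran from 0 through 4.8 to 2851 CPM in the CD34-positive cells and from 0 through 691 to 2685 CPM in the Ctsg-high cells. It was at 757 CPM in the 8 and 1025 CPM in the 11 Ctsg-high cells, with log2 folds of -2.24 against all 19 and -2.41 against the 11. Its Ctsg-low level was 1314 CPM, nearer to the Ctsg-high than to the CD34-positive level. The Ccl3 fold with the 18 CD34-positive cells was -1.17 and no longer past 2-fold in all 3 versions. Il4, the cytokine for which basophils are best known, had -1.58 and -1.30, at 55.1 against 167 CPM, the second no longer past 2-fold in all 3 versions.

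**Figure D3:**
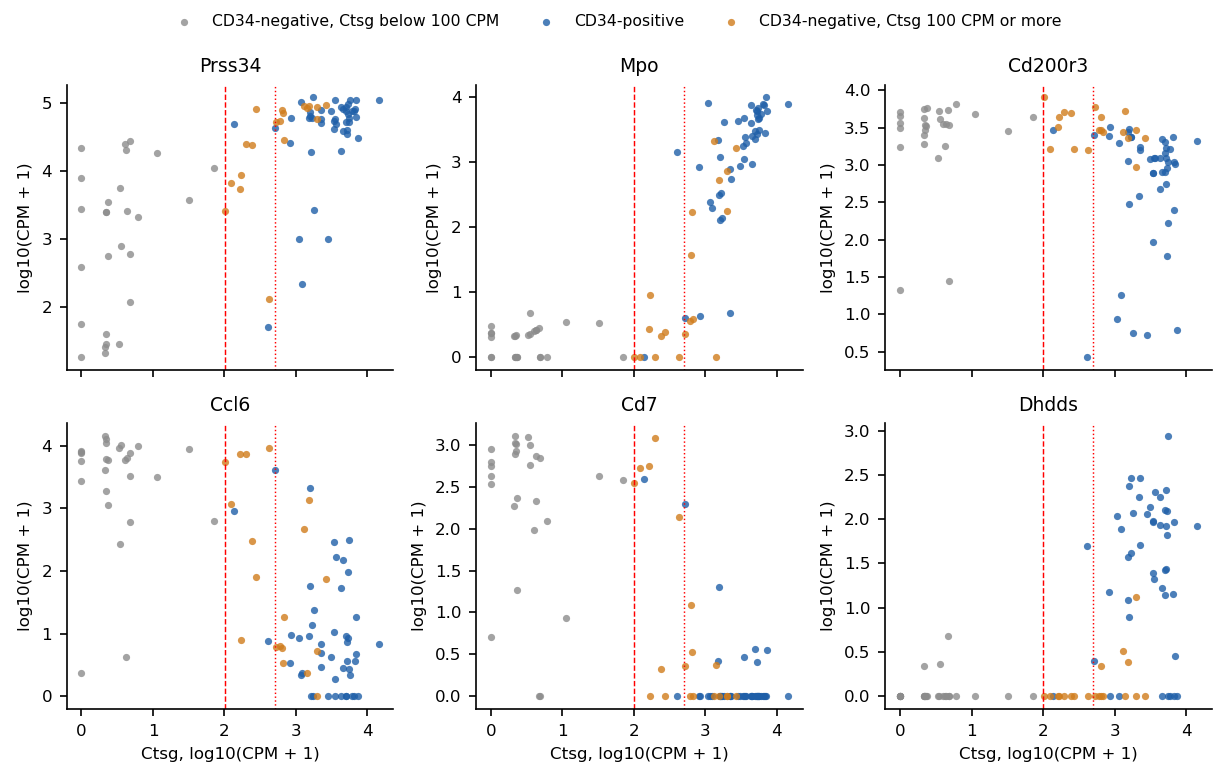
Each panel plots 1 gene (Prss34, Mpo, Cd200r3, Ccl6, Cd7, Dhdds) at log10 of CPM plus 1 against Ctsg on the same scale, with 1 point per cell, coloured by group, and lines at 100 CPM (dashed) and 500 CPM (dotted) of Ctsg. High values of Ccl6 and Cd7 in the CD34-negative cells lie mostly left of the dotted line, with 366 against 1.34 CPM of Cd7 on its sides, Cd200r3 is at 939 CPM or more in every Ctsg-high cell and lower in 19 CD34-positive cells, and Dhdds reaches no more than 12.1 CPM in the CD34-negative cells right of the dashed line.

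Il18rap and Il18r1 encode the chains of the interleukin-18 receptor. Il18rap ran from 0 through 505 to 3475 CPM in the CD34-positive cells and from 310.2 through 1737 to 4193 CPM in the Ctsg-high cells, a log2 fold of -1.44 (-1.23 at 500 CPM of Ctsg or more). Il18r1 had -1.92 and -1.32, and Csf2rb2, the beta chain of the mouse interleukin-3 receptor, -1.38 and -1.15. Of the 14 cytokine receptor genes that entered, 4 were past 2-fold lower and 1, the interferon-gamma receptor Ifngr1, higher, at 132 against 56.8 CPM, beside 3.84% and 17.7% of all genes. The list's median was -0.79. The Ifngr1 call was lost with TMM or scran factors, against the 11 cells and with the 18 CD34-positive cells, and with ERCC spike-in RNA as the scale 2 genes were past 2-fold lower and 2 higher, with a median of -0.15. With the 18 CD34-positive cells in the Ctsg-high range 1 of 13 was past 2-fold lower, beside 4.15% of all genes, with a median of -0.59. Il18r1 kept -1.56, while Il18rap had -0.64 and Csf2rb2 -0.85.

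Cd200r3, an activating receptor of basophils and mast cells, summed to 1279 CPM in the CD34-positive cells, and to 3525 and 3566 CPM in the Ctsg-high and Ctsg-low cells. Single CD34-positive cells ran from 1.67 through 1165 to 3231 CPM and Ctsg-high cells from 939 through 2926 to 7974 CPM. The groups overlap, with 19 of 46 CD34-positive cells below the lowest Ctsg-high cell. The CD34-negative groups were thus close in summed Cd200r3 level, with the fold of -1.46 lying between the gates (-1.35 at 500 CPM or more). Its relative Cd200r4 had -1.38, and the thrombin receptor F2r -3.66, at 1.83 against 34.7 CPM. Of 10 surface immune receptor genes that entered, 4 were past 2-fold lower and 0 higher, beside 3.84% and 17.7% of all genes. Among the 18 CD34-positive cells it was 2 of 10, beside 4.15%, Cd200r3 had -1.10 without passing in all 3 versions, and Cd200r4 -0.59. With ERCC spike-in RNA as the scale it was 2 of 10 lower and 1 higher, and the median went from -0.77 to -0.12. F2r was at -2.70 without Ctsg-high cell 22. Clec12a, an inhibitory lectin of myeloid cells, was higher in the gate at 1.59 and had 0.82 against the Ctsg-high cells, under 2-fold.

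Adhesion genes went both ways. Selplg, the P-selectin ligand, stood at 467 against 1093 CPM with folds of -1.22 and -1.32, Itgam, the alpha chain of the integrin Mac-1, had -1.40 (-0.94 at 500 CPM or more, no longer past 2-fold), and the eotaxin receptor Ccr3 had -2.82 (-1.90, not past 2-fold in all 3 versions). Itga4, the integrin alpha chain that binds VCAM-1 in the marrow, was higher instead, at 190.4 against 32.6 CPM, with a read in 42 of 46 and 7 of 19 cells and folds of 2.51 and 1.99. Of the 15 genes of the list, 5 were past 2-fold lower and 1 higher, beside 3.84% and 17.7% of all genes, and 13 had a log2 fold below 0. In the comparison with 18 CD34-positive cells 2 were past 2-fold lower, beside 4.15% of all genes, and Selplg had -0.74, while Itga4 kept 2.33. Without cell 26 the Itga4 fold was 3.15.

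The 12 genes with the greatest deficit in the CD34-positive cells were of several kinds. P2ry10, a lysophospholipid receptor, was at 8.99 CPM against 142 CPM in the Ctsg-high and 145 CPM in the Ctsg-low cells, with a read in 9 of 46, 16 of 19 and 18 of 27 cells and folds of -3.84 and -2.55. Itgb3, the beta chain of the vitronectin receptor, stood at 17, 209 and 338 CPM with -3.54 and -3.03. Mapk12, the gamma isoform of p38 kinase, stood at 0.932, 37.2 and 139 CPM with -4.30 and -4.50. In these 3 genes the difference was also past 2-fold against the 11 cells, and with the 18 CD34-positive cells in the Ctsg-high range, where the folds were -3.78, -2.33 and -4.48.

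Ccr2, the receptor for the chemokine CCL2, known for guiding monocytes out of the marrow, ran from 0 through 0 to 809 CPM (cell 37) in the CD34-positive cells and from 0 through 121 to 1436 CPM in the Ctsg-high cells. Its fold of -3.16 became -2.11 against the 11 cells. C5ar1, the complement C5a receptor, stood at 8.29 against 158 CPM (-4.09) and Dgke, a diacylglycerol kinase, at 1.4 against 76.8 CPM (-5.02), but neither was past 2-fold in all 3 versions against the 11 cells (-2.75 and -3.36), and Dgke was read in 5 of the 19. Axin2, a feedback inhibitor of Wnt signalling, had -3.39 (-1.83), and the phosphodiesterase Pde7b -3.38. The mRNA-decay factor Zfp36 had -3.84, the class I gene H2-Q10 -3.82, Abtb2 -3.32 and Gm37593 -3.56. Leaving out 1 Ctsg-high cell moved C5ar1 to -3.40 (cell 15), Dgke to -4.29 (cell 29), Axin2 to -2.77 (cell 42) and Gm37593 to -2.88 (cell 46). H2-Q10 belongs to a family of near-identical genes, and Dgke, Axin2 and Zfp36 share exon bases with a gene on the other strand, so their counts are uncertain.

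Cell cycle genes were among those whose difference shrank, and they show how few cells carried it. Of the 46 S phase genes that entered, 37 were past 2-fold higher against the gate, beside 18.6% of all genes, and 23 against the Ctsg-high cells, beside 17.7%, and the median log2 fold went from 1.99 to 1.16. Of the 51 genes of G2 and mitosis the counts were 38 and 12, and the 12, 23.5% of the list, are near the 17.7% of all genes. With the 18 CD34-positive cells it was 11 of 32, beside 10.8%, with a median of 1.09. Against the 11 cells at 500 CPM of Ctsg or more it was 3 of 50, beside 17.1%, with a median of 0.28. Over all 46 the median went from 1.83 to 0.93, with 22 of the 38 between the limits and 5 vanished.

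Each cell was also drawn to 200000 gene reads, and the list genes with a read were counted. The median for G2 and mitosis was 18 genes in the CD34-positive, 9 in the Ctsg-high and 7 in the Ctsg-low cells, and for S phase 27, 9 and 6 genes. At least 20 G2 and mitosis genes were read in 21 of 46 CD34-positive cells, in 2 of 19 Ctsg-high cells and in 0 of 27 Ctsg-low cells. The 2 cells, numbers 25 and 36, held 65.2% of all G2 and mitosis reads of the Ctsg-high cells. The summed values of these lists thus depend on whether that pair is in the sum, and 42 of 48 G2 and mitosis genes were past 2-fold higher with only the pair left out, a step that fixes the direction. With the cells of 20 or more such genes left out of both groups, which kept 25 CD34-positive and 17 Ctsg-high cells, 17 of 32 S phase genes were past 2-fold higher and 0 lower, beside 15.5% and 4.72% of all genes, with a median of 1.56. The G2 and mitosis list itself chose those cells, and its count was 7 of 19 with a median of 0.92.

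**Figure D4:**
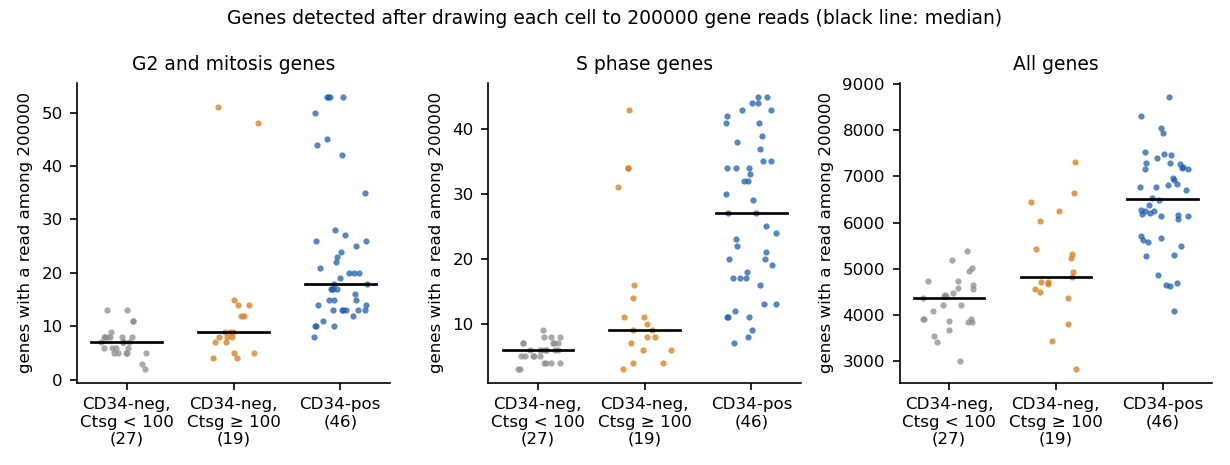
Each point is 1 cell, drawn at the number of G2 and mitosis genes, S phase genes and all genes with a read after each cell was reduced to 200000 gene reads. CD34-negative cells 25 and 36 stand above the other Ctsg-high cells in the first panel, among the 21 CD34-positive cells with 20 or more such genes.

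The S phase genes that remained include Gins1, of the replicative helicase, with 944 against 2 reads and a ratio of 222 (57.5 to 1951). Exo1, the DNA repair exonuclease, had 692 reads against 1 and a ratio of 325 (54.1 to 13830.1). The chromatin helicase Hells, the helicase subunit Mcm2 and the licensing factor Cdt1 had log2 folds of 3.32, 2.10 and 2.34. The proliferation antigen Mki67 stood at 685, 382 and 35.2 CPM, with 1.91 for the gate and 0.84 against the Ctsg-high cells, and ran from 0 through 1.21 to 3636 CPM in the latter, where cell 25 held 48% of the reads. Its median over the CD34-positive cells was 107 CPM, so the typical cells of the groups differed far more than the sums. Topoisomerase Top2a was similar, with 1.80 and 0.84. Cyclin B1 (Ccnb1) and the spindle motor Kif11 remained past 2-fold at 2.76 and 1.90. Without cell 36 Mki67 was at 1.68, Top2a at 1.84 and Kif11 at 3.12, without cell 25 Ccnb1 at 4.06, without cell 28 Hells at 4.58 and without cell 32 Mcm2 at 2.90.

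Of the 10 vanished higher genes with the largest gate difference by the smallest of the 3 versions, several were genes of repair or division whose Ctsg-high reads lay mostly in a single cell. Brca1, the repair protein, stood at 54.6 CPM against 40.3 CPM in the Ctsg-high cells, but 96.8% of the latter reads were in cell 36. Its log2 fold of 0.43 became 4.44 with the cells of 20 or more G2 and mitosis genes left out of both groups. For the helicase Brip1, the kinetochore protein Spc25 and the centrosome protein Alms1 the same step gave 1.10, 2.43 and 3.71, from 0.51, 0.33 and 0.57, and the top cell held 92.9%, 56.5% and 98.7% of the Ctsg-high reads. Smarcad1, a chromatin remodeller, went from 0.53 to 1.80. Leaving out cell 36 alone, with the CD34-positive cells kept whole, gave 4.56 for Brca1, 3.21 for Brip1, 4.43 for Alms1 and 1.63 for Smarcad1, and leaving out cell 25 gave 1.42 for Spc25. Pold1, the catalytic subunit of DNA polymerase delta, was read in 11 of 19 Ctsg-high cells and went from 0.32 to -0.62, and it was at 0.93 without cell 32 alone. The splicing factor Srsf10, Med31 of the Mediator complex and Gm6652 had 0.31, -0.03 and 0.72 after that step, and Med31 was at 2.79 without cell 45 and Gm6652 at 2.06 without cell 15. Of all 161 vanished higher genes, 92 (57.1%) were still under 1.5-fold after that step and 6 (3.73%) were past 2-fold higher, while 617 of the 1092 remaining ones (56.5%) were past 2-fold. The step leaves fewer cells, so fewer genes enter.

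Promoter sequence is shown for 2 genes, since E2F sites are known from G1/S genes and the CHR from late genes. Both were picked among genes that already held a match, so that match follows from the choice. Cdc25a had the highest CD34-positive level of the 12 genes named as higher with an E2F match and a single promoter. Mki67 had the highest such level of the G2 and mitosis genes with a CHR match and a single promoter. The windows are the 250 bases before the annotated start in RefSeq on GRCm38.p6, written 5′ to 3′ on the gene's own strand, with capitals for every match of either element. The first, chr9:109875329-109875578 on the plus strand, belongs to Cdc25a, which was near silent in the Ctsg-high cells. The second, chr7:135716380-135716629 on the minus strand, belongs to Mki67.
Cdc25a: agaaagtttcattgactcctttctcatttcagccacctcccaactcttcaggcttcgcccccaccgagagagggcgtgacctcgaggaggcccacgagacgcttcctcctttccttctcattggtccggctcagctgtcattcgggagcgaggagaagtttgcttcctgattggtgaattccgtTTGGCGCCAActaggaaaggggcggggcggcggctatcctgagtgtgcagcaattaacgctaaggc
Mki67: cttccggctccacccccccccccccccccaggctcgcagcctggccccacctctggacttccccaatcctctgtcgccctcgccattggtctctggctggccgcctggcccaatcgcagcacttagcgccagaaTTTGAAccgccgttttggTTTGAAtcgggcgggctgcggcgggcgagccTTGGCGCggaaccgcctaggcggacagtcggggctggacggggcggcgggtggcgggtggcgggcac
The E2F search looked for TTCCCGC and for its variants with TTGGCGC, with TTCGCGC or with TTGCCGC in its place, and the CHR search for TTTGAA. Both strands were read, and matches were counted where they overlap. In Cdc25a the capitals are 2 overlapping E2F matches, TTGGCGC and its reverse complement GCGCCAA, beginning 66 and 63 bases before the start. In Mki67 they are 2 CHR matches beginning 116 and 98 bases before it and an E2F match, TTGGCGC, beginning 67 bases before it, so this window holds letters of both elements. E2F letters stood in 17 of 35 S phase genes with a promoter in the table (48.6%) and in 11 of 47 of G2 and mitosis (23.4%), beside 9.01% of all 27025 genes with a promoter. CHR letters stood in 20 of 47 genes of G2 and mitosis (42.6%) and in 6 of 35 of S phase (17.1%), beside 18.3% of all genes with a promoter. A match is a description of these letters and not a measured site.

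Lists of cell growth were read as well. Of the 27 ribosome biogenesis genes that entered, 14 were past 2-fold higher against the Ctsg-high cells and 15 against the gate, beside 17.7% and 18.6% of all genes, and the medians were 1.20 and 1.24. Dkc1, which modifies ribosomal RNA, stood at 119 against 11.3 CPM (3.29), the nucleolar GTPase Gnl3 at 41.8 against 2.69 CPM (3.54), and nucleolin, Ncl, at 368 against 140.4 CPM (1.38). Polr1b, a subunit of RNA polymerase I, stood at 28.2 CPM against 4 reads, a ratio of 99.5 (36.3 to 390.4). Against the 11 cells at 500 CPM of Ctsg or more 7 were past 2-fold higher, beside 17.1% of all genes, and the median was 0.79. With the 18 CD34-positive cells in the Ctsg-high range 4 of 20 were, beside 10.8% of all genes, with a median of 0.59. Leaving out 1 Ctsg-high cell moved Dkc1 to 4.73 (cell 28) and Gnl3 to 5.22 (cell 27).

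Of 18 folate and one-carbon genes, which supply the bases for DNA and RNA, 7 were past 2-fold higher (11 against the gate), beside 17.7% of all genes, with a median of 1.04. For the 18 CD34-positive cells it was 4 of 12, beside 10.8%, with a median of 0.65. They included Fpgs, which traps folate in the cell, with 931 against 2 reads and a ratio of 219 (56.7 to 1925), and the purine enzyme Atic at 3.48. The serine enzymes Shmt1 and Phgdh had 3.44 and 3.14, which became 4.67 without cell 8 and 4.53 without cell 36. Of 10 amino acid transporter genes 4 were past 2-fold higher, beside 17.7% of all genes, and with the 18 CD34-positive cells 1 of 8, beside 10.8%, with a median of 0.12 in place of 0.78. Slc7a4 had 0 reads in every CD34-negative cell and 33.6 CPM in the CD34-positive cells, at least 158-fold higher, from 10 of 46 cells. Slc43a3, a nucleobase transporter, had 1.84 but -0.27 with the 18 CD34-positive cells, and 5.52 without Ctsg-high cell 36.

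Dhdds was not followed by most of its pathway. Of 30 dolichol and N-glycosylation genes 5 were past 2-fold higher (16.7% by count, beside 17.7% of all genes), with a median of 0.61. The mannosyltransferase Alg3 had 1340 against 4 reads and a ratio of 157 (58.2 to 609), and Alg1, the enzyme of an earlier mannose step, a fold of 3.40, which became 5.09 without cell 31. The subunits of the oligosaccharyltransferase Rpn1 and Ddost were at 1.15 and 1.15, and with the 18 cells Rpn1 was at -0.29 and Ddost at 0.27, with 2 of 27 genes of the list past 2-fold higher and 2 lower, beside 10.8% and 4.15% of all genes.

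Some genes that were lower in the CD34-positive cells against the gate lost that difference too. Immediate-early genes, which are transcribed within minutes of a stimulus, were lower in the CD34-positive cells against the gate, with 6 of 16 past 2-fold, beside 6.66% of all genes, and a median of -1.25. Against the Ctsg-high cells 1 of 15 was (Zfp36), near the 3.84% of all genes, while 2 of the 6 vanished, 2 shrank and Jun turned, and the median was -0.11. Jun, a subunit of the AP-1 factor, stood at 129, 82.2 and 631 CPM, and its log2 fold turned from -1.62 to 0.64. Single CD34-positive cells ran from 0 through 1.55 to 1482 CPM, Ctsg-high cells from 0 through 0 to 776 CPM (cell 34), and Ctsg-low cells from 0 through 254 to 5013 CPM. The median of Jun was thus highest in the Ctsg-low cells. Fos and Junb had -1.24 and -2.74 for the gate and 0.74 and -0.67 against the Ctsg-high cells. Without cell 34 Jun was at 1.35 and Fos at 5.12, so the Fos level of the Ctsg-high cells rests on that cell. With the cell richest in the gene left out Jun was at 0.32. With only the 18 CD34-positive cells in the Ctsg-high range Jun was at 0.13, under 1.5-fold, Fos at -0.10 and Junb at -1.07. Jun shares exon bases with Junos on the other strand.

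Among the vanished lower genes chosen in the same way, Bcar3, an adaptor of integrin signalling, stood at 3.4, 3.9 and 63.2 CPM, and the basophil transcription factor Bhlhe40 at 3.06, 2.27 and 54.7 CPM. Their gate folds were -3.16 and -3.05 and those against the Ctsg-high cells -0.16 and 0.31, which became 1.06 without cell 25 and 1.28 without cell 46. The glucose transporter gene Slc2a6 went from -1.96 to -0.43. Ahnak, Fzd4, Hivep2, Kctd21, Fam3b, Gm19719 and C030013C21Rik complete the 10, and leaving out 1 cell moved Fam3b to 1.12, Fzd4 to 1.04, Hivep2 to 2.38, Kctd21 to 1.35 and Gm19719 to 0.98, with cells 46, 8, 28, 25 and 2 left out in turn. Bcar3, Bhlhe40, Hivep2 and Gm19719 share exon bases with a gene on the other strand.

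Of the 15 genes that turned, Jun among them, the 5 with the largest gate difference by the smallest of the 3 versions were low in both compared groups and higher in the Ctsg-low cells. Tgfbi, an extracellular matrix protein of macrophages, stood at 8.86, 1.7 and 92.8 CPM, and Ptafr, the receptor of platelet-activating factor, at 5.23, 0.284 and 40.4 CPM. Sbf2, a phosphatase-like regulator of RAB proteins, stood at 10.1, 1.91 and 81.9 CPM. Gm15706 had 0 reads in the Ctsg-high cells, and E230016M11Rik turned by 0.74. With only the 18 CD34-positive cells Tgfbi had a fold of 0.33 and E230016M11Rik -0.28, and without cell 34 Tgfbi had 3.30. With the cell richest in the gene left out, Tgfbi had 0.86, Ptafr 0.30 and Sbf2 0.49. Folds of 1.87, 2.28 and 1.93 therefore compare low levels, and the gate folds of -2.49, -1.98 and -2.14 came from the Ctsg-low cells.

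Of the 15 lineage transcription factors that entered, 1 was past 2-fold higher and 1 lower, beside 17.7% and 3.84% of all genes. Gata1, the erythroid and mast cell factor, had -1.10 without passing in all 3 versions. Gata2, the factor of basophil and mast cell precursors, stood at 1919 against 2660.0 CPM (-0.47), Runx1 had -0.02 and Cebpa -0.21. Gfi1, a repressor of granulocyte precursors, was the higher one (1.51, and 2.15 without cell 34, though no longer past 2-fold in all 3 versions with TMM or scran factors or with the 18 CD34-positive cells) and Nfil3, a bZIP factor, the lower one (-2.01, and -1.36 at 500 CPM of Ctsg or more, where 1 of the 3 versions or more missed the limit). Of 22 actin cytoskeleton genes 20 had a fold below 0, with a median of -0.59 and 1 past 2-fold lower (Arpc5, -1.09), near the 3.84% of all genes, and Actb stood at 6411 against 11302 CPM (-0.82). This direction depends on the scale, since with ERCC spike-in RNA the median was 0.059. Of 9 MHC genes 2 were past 2-fold higher, H2-Ab1 of class II at 1.56 and H2-Q7 of class I at 1.17. The 2 are 22.2% of the list, near the 17.7% of all genes, and H2-Ab1 was at 2.92 without cell 29.

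**Figure D5:**
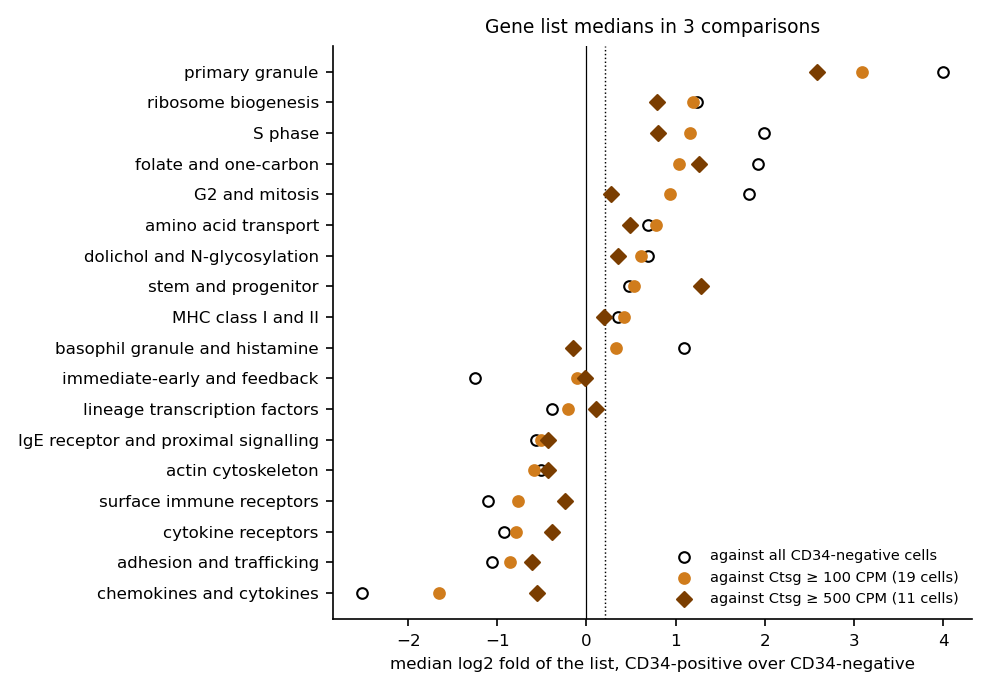
For each gene list, symbols mark the median log2 fold of the CD34-positive cells over the whole CD34-negative gate (open circle), over the 19 Ctsg-high cells and over the 11 Ctsg-high cells at 500 CPM or more (diamond), with the dotted line at the median of all genes. Chemokines move from -2.51 through -1.65 to -0.56, G2 and mitosis from 1.83 to 0.93, and ribosome biogenesis stays at 1.24 and 1.20 for the first pair.

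Depth and RNA content moved with the groups. Gene reads per cell had medians of 633178 in the CD34-positive and 715757 in the Ctsg-high cells, ranging from 374011 to 1154738 and from 563189 to 919997. At 200000 reads per cell the medians were 6515 genes in the former and 4825 in the latter. Gene reads per ERCC read had medians of 14.4 and 8.93, and across the 19 Ctsg-high cells this ratio had a Spearman correlation of 0.76 with Ctsg. With the ERCC reads as scale the median over all genes was 0.87 in place of 0.21. The part of RNA content in the folds was not tested.

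Of the 8 marker lists of other cells, mast cell genes summed to 7.33 CPM in the CD34-positive and 0.0709 CPM in the Ctsg-high cells, with 5 and 8 of 9 genes at 0, among them the proteases Mcpt1, Mcpt2 and Mcpt9. Neutrophil genes summed to 71.2 and 41.7 CPM, with 5 and 8 of 9 at 0, among them Camp, Ltf, Ly6g and Ngp, and nearly all of both sums was Lcn2. The monocyte and dendritic cell list summed to 77.2 and 467 CPM, most of the latter being Ccr2, which basophils also express, and F13a1 at 96.8 CPM, while Cx3cr1 of the same list was past 2-fold the other way, at 11.1 CPM against 0 reads. Per cell that list ran from 0 to 809 CPM in the CD34-positive and from 0 to 1436 CPM in the Ctsg-high cells, with Fcgr1 and Cd209a at 0 in both. B cell, eosinophil and megakaryocyte lists summed to 53.2, 112 and 936 CPM against 39.6, 66.6 and 1464 CPM, erythroid genes to 39.4 against 8.58 CPM, and T and NK cell genes to 7.99 against 3.26 CPM. Of the eosinophil list Siglecf stood at 60.3 and 66.6 CPM, while Prg2, the granule major basic protein, stood at 48 CPM in the CD34-positive cells with 0 reads in the Ctsg-high cells. The megakaryocyte sum was almost wholly Itga2b, with Pf4 and Ppbp at 0. The part of such cells in the folds was not tested.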

How the data were processed

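Per the labels' protocols, cDNA of each cell was amplified over 19 PCR cycles in a Smart-seq2-type reaction and sequenced from one end for 50 bp. The authors deposited 1 table of whole read counts per gene, 1 column per cell, not normalized. Per the submitters' processing notes, GSNAP, HTSeq (0.5.3p3) and mm10 were used; the annotation release and strand setting are not given in the sources used here. Of 46078 gene identifiers 45143 matched a symbol.

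From these, cells with at least 50000 gene reads were kept, which left out 2, and ERCC and summary rows stayed out of totals. No 2 cells had identical columns. Reads were summed over the cells of a group. Log2 folds compare summed CPM with 1 CPM added to both groups. CPM is not divided by gene length, so levels are compared only within a gene. Counting intervals of levels are exact Poisson at 95%. Ratio and fold intervals set opposite bounds of these against each other. Genes at 0 were set to 3 reads over the group for ratios. Cells were drawn once to 200000 gene reads with seed 1. The computation was tested on simulated data. Positions come from a GRCm38 annotation and promoters from RefSeq on GRCm38.p6.

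The text names the 12 genes in each direction with the largest fold by the smallest of the 3 versions, the 10 vanished gate differences in each direction and 5 reversed ones, ranked by the smallest of the 3 versions of the gate fold, Ctsg, Cd34 and Kit, and members of the 18 gene lists and 8 marker lists of other cells; the most abundant genes are named where they bear on a list. Some genes that the rule names are not reported here. The cells, genes and lists were chosen with earlier results of these data known. Alternatives were other Ctsg thresholds, filters, pseudocounts, scalings (TMM in edgeR 4.0.16, scran 1.30.0, ERCC), subsets of cells and single cells left out. Python 3.11.15 with numpy 2.4.6, scipy 1.17.1 and pandas 2.3.3 was used.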

Additional observations from a re-analysis of the deposited data

Results flagged for a closer look

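CD34-positive cell 3 was left out for its few gene reads and enters no comparison. It held Ctsg at 1809 CPM, from 57 of 31504 gene reads with a counting interval of 1370 to 2344 CPM, which lies inside the range of the kept CD34-positive cells. It stands here because the signal is in a cell that the comparisons did not use. Kit and Cd34 had 0 reads in it, and at this depth the counting interval of 0 reads goes up to 117 CPM. The CD34-negative cell left out for the same reason, cell 20, had 2 Ctsg reads among 24565, which is 81.4 CPM.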

How the results depend on the processing

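No paired analysis was possible because the cell numbers of the 2 gates only name cells and no label ties a cell to a mouse. Depth per cell limits genes with a handful of reads. Values below are CD34-positive against Ctsg-high cells unless the gate is named, and the causes of these shifts were not tested. Among single named genes 1635 values moved by more than counting error, 4444 did not, and 5 values past 2-fold changed sign, which are given here.

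With a Ctsg threshold of 200 CPM in place of 100 CPM, 302 higher and 122 lower gate differences vanished, 162 lower ones remained and 42 turned. The G2 and mitosis median was 0.57, Cd7 was 0.42, and the difference in the share of cells with a read was -15.5 percentage points for Cd7 and 33.5 for Mpo. At 500 CPM 445 higher and 148 lower ones vanished, 150 lower ones remained and 59 turned, with medians of 0.80 for S phase and 0.28 for G2 and mitosis, 0.14 for Ccl6 and 2.68 for Cd7. These thresholds leave fewer cells.

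TMM factors gave 966 genes lower against the gate, of which 393 remained, and medians of 0.77 for G2 and mitosis and -0.75 for actin genes. Scran factors gave 569 genes lower against the Ctsg-high cells and 987 against the gate, of which 418 remained, and medians of 0.72 and -0.80. The all-gene median was 0.03 and -0.01 with these factors.

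ERCC scaling, which counts RNA content, gave 3267 higher and 109 lower genes against the Ctsg-high cells and 4964 and 114 against the gate. Of the latter, 2869 and 62 remained, 371 and 10 vanished, and 4 lower ones turned. List medians were 0.13 for IgE receptor genes, 0.98 for basophil granule, 3.71 for primary granule, 0.44 for lineage factors, -0.21 for adhesion, 1.80 for S phase, 1.57 for G2 and mitosis, 1.84 for ribosome biogenesis, 1.23 for dolichol and 0.059 for actin genes.

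A pseudocount of 10 CPM gave 886 higher and 225 lower genes against the Ctsg-high cells and 931 and 397 against the gate, of which 526 and 169 remained, 51 and 35 vanished and 4 lower ones turned. With 0.1 CPM 23 turned. Requiring 20 cells and 20 CPM left 1069 higher genes, 675 remaining higher ones and 7 turned. Summed reads without the top cell of each gene gave 167 vanished lower differences and 31 turned.

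With the 18 CD34-positive cells within the Ctsg range of the Ctsg-high cells, a setting added after seeing the data, 879 genes were higher, 1136 against the gate and 500 of them remained, while 7 turned. Medians were 0.97 for primary granule and 0.86 for S phase, and Rpn1 and Slc43a3 were at -0.29 and -0.27. In cells numbered 7 to 42 the S phase median was 0.91 and that of G2 and mitosis 0.40. Among cells with fewer than 20 G2 and mitosis genes 99 higher differences vanished. Without CD34-negative cells 25 and 36 the medians were 2.28 for S phase and 3.99 for G2 and mitosis, a step that leaves the CD34-positive side whole and so fixes the direction.

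Leaving out each Ctsg-high cell in turn, also added after seeing the data, gave medians of 1.07 to 2.17 for S phase and 0.84 to 1.58 for G2 and mitosis. The remaining higher differences numbered 1059 to 1291, the remaining lower ones 234 to 278, the vanished higher ones 119 to 177, the vanished lower ones 68 to 85 and the turned ones 13 to 18. Drawing to 50000 reads gave a difference in the share of cells with a read of -17.6 percentage points for Cd7 (-29.1 at 200000 reads) and 52.3 for Mpo (45.2 at 200000 reads). With no drawing it was -16.5 for Ccl6 (-31.7) and 24.1 for Mpo.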
